A study of Homo sapiens with 24 samples.

Results

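Metallothioneins and the machinery that handles zinc were examined as a set of 8 genes chosen by symbol, namely MT1E, MT1F, MT1G, MT1M, MT1X, MT2A, MTF1 and SLC30A1. The set was chosen with earlier results of these data known. All 8 were present among the 58721 gene identifiers counted in 24 RNA-seq libraries of A549, a human lung adenocarcinoma cell line. In the single-knockdown experiment, cells received 25 nM of siRNA against the transcription factor MYBL2 (siMYBL2, n = 4), against the transcription factor FOXM1 (siFOXM1, n = 4) or a scrambled control siRNA (siControl, n = 4). In a separate experiment both factors were targeted (siBoth, n = 3) beside its own scrambled control (siControl_siBoth, n = 3). In the third experiment, cells were exposed for 24 h to 20 µM FDI-6, a small molecule known as an inhibitor of FOXM1 binding to DNA (FDI-6, n = 3), beside control libraries (control_FDI-6, n = 3). The study's list of supplements names DMSO for these controls, whereas a figure legend of the study calls them untreated. The labels name no vehicle. The labels name no genome edit in any group, and they do not say how the siRNA amount was divided in siBoth, which of 2 media each experiment used, or whether replicates came from separate cultures. The study's methods call the replicates biological, and the p-values measure the spread between these libraries.

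Metallothioneins are small, cysteine-rich proteins that bind zinc and copper and buffer the free metal in the cell. MTF1, the metal-responsive transcription factor, senses zinc through its zinc fingers and binds metal response elements in the promoters of metallothionein genes and of SLC30A1. SLC30A1 (ZnT1) is the zinc exporter of the plasma membrane, so that both the buffer and the exit route are known targets of one sensor.

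The 6 metallothionein genes lie in one cluster on chromosome 16 of hg38, from MT2A (56608584 to 56609497, plus strand) past MT1E, MT1M, MT1F (56657731 to 56660698, plus strand) and MT1G to MT1X (56682470 to 56684196, plus strand). MTF1 (37809574 to 37859592) and SLC30A1 (211571568 to 211579161) are both on the minus strand of chromosome 1. To show the element through which the sensor is known to bind, the 250 bases before the start site were taken from RefSeq (GRCh38.p14) for the 4 members that the promoter table held, namely MT2A, MT1X, SLC30A1 and MTF1. The 3 sequences with a match are given below on the gene strand from 5′ to 3′, and capitals mark each match to the core of the metal response element, searched as TGCACNC and TGCGCNC on both strands.
MT2A: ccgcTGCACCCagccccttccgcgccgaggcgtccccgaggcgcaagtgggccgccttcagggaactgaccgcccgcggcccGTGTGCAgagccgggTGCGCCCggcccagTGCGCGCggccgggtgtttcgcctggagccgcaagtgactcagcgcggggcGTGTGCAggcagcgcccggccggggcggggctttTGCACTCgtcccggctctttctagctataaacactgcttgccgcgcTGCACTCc
MT1X: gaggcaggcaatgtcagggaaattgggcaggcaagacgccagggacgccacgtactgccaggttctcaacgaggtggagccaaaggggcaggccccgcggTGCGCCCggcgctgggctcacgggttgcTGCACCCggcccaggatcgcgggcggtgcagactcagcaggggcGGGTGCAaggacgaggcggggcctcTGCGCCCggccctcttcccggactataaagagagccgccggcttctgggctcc
SLC30A1: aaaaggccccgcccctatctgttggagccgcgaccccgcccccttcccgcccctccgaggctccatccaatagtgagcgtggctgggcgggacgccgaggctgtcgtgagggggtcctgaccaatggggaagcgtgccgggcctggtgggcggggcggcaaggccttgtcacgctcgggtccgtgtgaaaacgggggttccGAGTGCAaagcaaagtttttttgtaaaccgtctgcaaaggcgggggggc
These windows are chr16:56608334-56608583 for MT2A, chr16:56682220-56682469 for MT1X and chr1:211579162-211579411 for SLC30A1, and each lies directly upstream of the annotated transcript. The MT2A window held 7 matches, 5 of them on the gene strand, and the MT1X window held 4, whereas the SLC30A1 window held 1 and the MTF1 window none. No match overlapped another. Of 35116 promoter windows of the same length, 24.8% held at least 1 match, 0.370% held at least 4 and 0.0313% held at least 7. The letters were matched as a description of these windows, without evidence of binding.

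**Figure D1:**
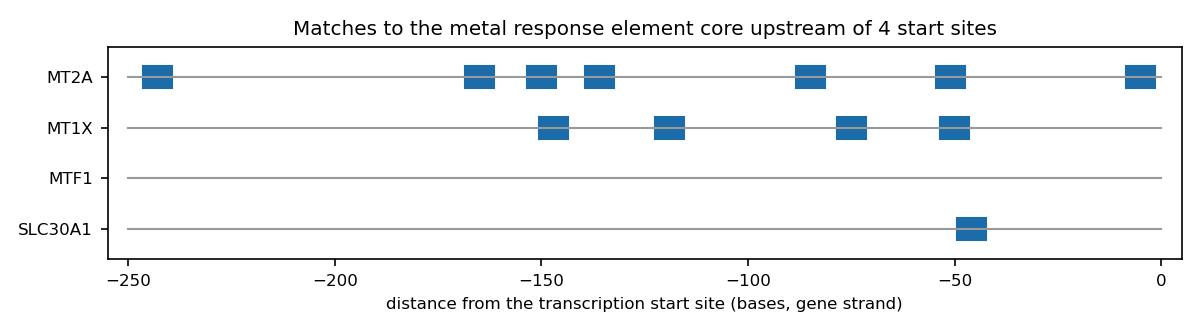
Positions of matches to the metal response element core (boxes) in the 250 bases before the start site of 4 genes, with distance from the start site in bases on the x axis. MT2A shows 7 boxes from 246 to 2 bases upstream, MT1X shows 4 between 150 and 47 bases upstream, SLC30A1 shows 1 and MTF1 shows none.

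Libraries held 16487394 to 30140550 read pairs assigned to genes, the FDI-6 experiment being the shallowest. Pairs that did not align made up 1.73% to 3.03% of pairs in the single-knockdown and FDI-6 experiments and 7.68% to 10.9% in the siBoth experiment, so levels are set side by side across experiments only as descriptions. The epithelial keratins were abundant, KRT8 at 1598 to 5652 and KRT18 at 1020 to 2500 CPM (counts per 1000000 counted pairs). The other epithelial markers were lower and varied more, KRT19 at 37.7 to 349, EPCAM at 1.67 to 37.5 and CDH1 at 9.51 to 90.3 CPM, and the leukocyte marker CD3E had no count. The alveolar type II markers SFTPC, SFTPB and NKX2-1 stayed at or below 0.321 CPM, and NAPSA was at 0.546 to 3.07 CPM. The siRNAs lowered their targets, with MYBL2 at 133 to 178 CPM in siControl and 4.60 to 8.73 CPM in siMYBL2, and FOXM1 at 108 to 139 CPM in siControl and 10.3 to 13.2 CPM in siFOXM1. In the siBoth experiment MYBL2 was at 158 to 192 CPM in the controls and 6.22 to 9.90 CPM in siBoth, and FOXM1 at 126 to 143 CPM and 10.2 to 15.0 CPM.

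Among the metallothioneins, MT2A carried nearly all of the signal. It supplied 95.8% ± 2.0 (SD, n = 4) of the summed counts of the 6 metallothionein members in siControl, 96.1% ± 1.5 (n = 3) in siControl_siBoth and 98.7% ± 0.16 (n = 3) in control_FDI-6. On the scale of CPM per kilobase of exon, which allows levels of different genes to be compared, MT2A stood at 249 ± 81.3 in siControl, SLC30A1 at 20.3 ± 1.52, MTF1 at 3.32 ± 0.297, MT1F at 2.56 ± 0.784 and MT1X at 2.55 ± 0.828. MT1F and MT1X, both metallothionein isoforms of the same cluster, did not differ beyond their spread there, and both overlapped MTF1. By this level MT2A ranked 105 among 30725 genes with any count in siControl, 24 of 28165 in siControl_siBoth and 91 of 27804 in control_FDI-6.

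The remaining 3 metallothioneins were at the limit of detection. MT1M had no count in any of the 24 libraries, which allows at most 3 counts in the 572507070 pairs of all libraries, or 0.00524 CPM. MT1G had 9 counts in all, 7 of which fell in siBoth as 1, 1 and 5 counts in replicates 1 to 3, with none in the 3 siControl_siBoth libraries. MT1E had 34 counts in all, between 3 and 6 in each siMYBL2 library, between 0 and 7 in siControl and none in either group of the siBoth experiment. None of these 3 genes passed the filter on low counts in any comparison, and no fold change was computed for them. Such limits cover counting error only. The other 5 members passed the filter in all 4 comparisons.

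The control levels of the 5 measured members differed between the experiments. MT2A was at 228 ± 74.3 CPM in siControl, 293 ± 20.2 CPM in control_FDI-6 and 790 ± 222 CPM in siControl_siBoth, and the values of the last group did not overlap those of the other control groups. MT1X followed another order, at 0.874 ± 0.504 CPM in control_FDI-6, 4.41 ± 1.43 CPM in siControl and 22.9 ± 6.41 CPM in siControl_siBoth, with no overlap between any of these. MT1F was at 2.95 ± 0.608, 4.74 ± 1.45 and 7.18 ± 0.629 CPM in the same order, where the first and second groups overlapped. The sensor MTF1 was at 16.05 ± 1.86, 26.5 ± 2.37 and 40.5 ± 3.34 CPM in that order, again without overlap. SLC30A1 ran the other way between the siRNA experiments, at 120 ± 8.97 CPM in siControl, 77.4 ± 6.53 CPM in siControl_siBoth and 62.6 ± 2.19 CPM in control_FDI-6. Cells of siControl and siControl_siBoth received scrambled siRNA, whereas no siRNA is given for control_FDI-6. Experiment, transfection, any vehicle, medium and any difference in sequencing cannot be told apart in these differences, which were not tested. How many of all genes separated between the control groups in this way was not counted.

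**Figure D2:**
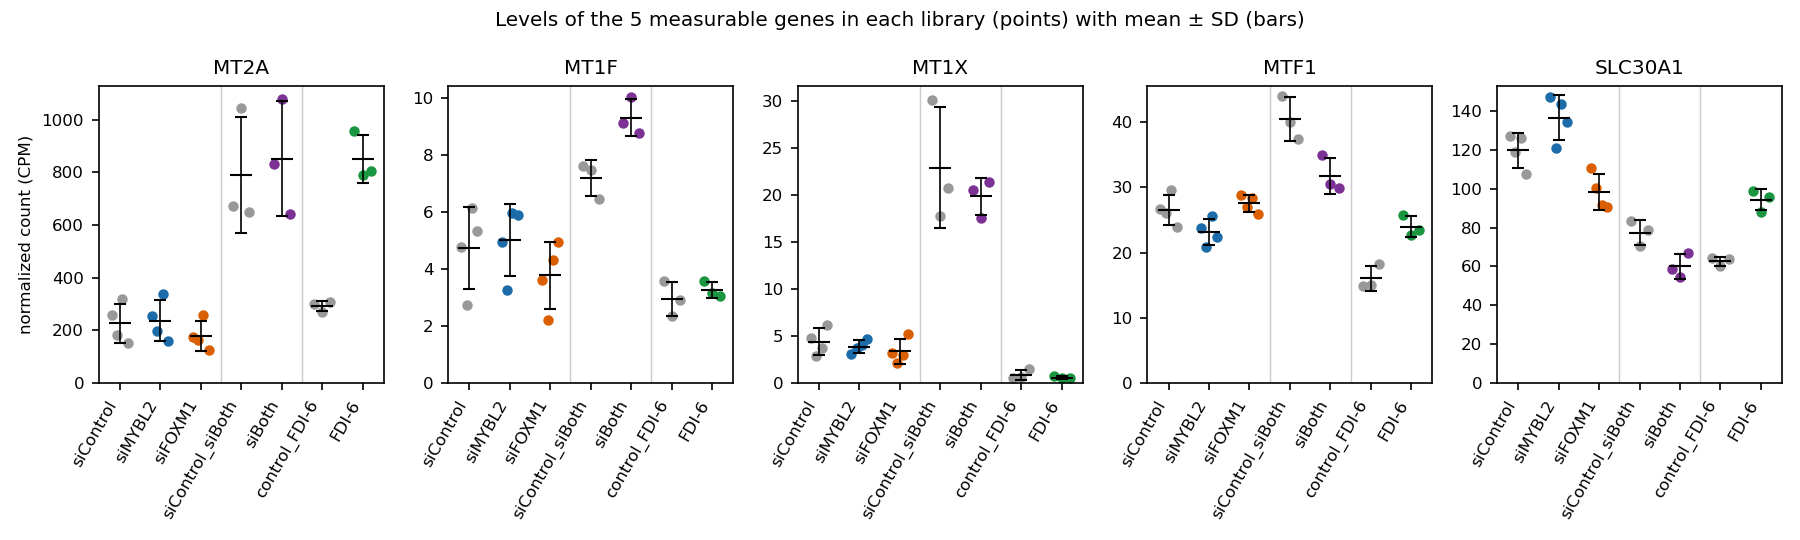
Normalized counts (CPM, linear axis from 0) of the 5 measured genes in every library; points are libraries, horizontal bars with whiskers are mean ± SD, and grey lines separate the 3 experiments. For MT2A the FDI-6 libraries (789 to 955 CPM) sit above control_FDI-6 (270 to 309 CPM), and for SLC30A1 and MTF1 the FDI-6 libraries also sit above their controls.

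To test whether FDI-6 altered these genes, the 3 treated libraries were compared with their 3 controls. A gene was called when edgeR's quasi-likelihood test gave a Benjamini-Hochberg adjusted p under 0.05 over all genes tested and the fold exceeded 1.5, which is 0.585 on the log2 scale. MT2A and SLC30A1 rose and no member fell, so that 2 of the 5 measured members were called, against a background of 13.8% of 15240 genes called. The members' median log2 fold change was 0.58, against -0.01 over all genes tested. As the members and lists were chosen with earlier results of these data known, their shares and medians describe them, here and below. They do not test a response of the set.

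MT2A was at 299, 270 and 309 CPM in control_FDI-6 replicates 1 to 3 and at 955, 789 and 807 CPM in FDI-6. The lowest treated library therefore lay above the highest control, and the mean was 2.90 times that of the controls. The log2 fold change was 1.54 (SE 0.08, adjusted p = 1.71e-07). By CPM per kilobase MT2A ranked 22 of 28473 genes in FDI-6, against 91 in its control.

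The zinc exporter SLC30A1 was at 64.1, 60.1 and 63.7 CPM in the controls and at 98.7, 88.2 and 96.0 CPM with FDI-6. The groups did not overlap, and the 3 libraries within each group lay close together. Its log2 fold change of 0.588 (SE 0.073, adjusted p = 9.72e-05) lay directly above the fold threshold. The adjusted p was 0.00182 or lower under each alternative tried, but the call was lost with DESeq2 (0.585), relative log expression scaling (0.585), upper-quartile scaling (0.545) and a filter of 10 counts in every library (0.584), and without FDI-6 replicate 1 (0.558), FDI-6 replicate 3 (0.570) or control_FDI-6 replicate 2 (0.557).

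The sensor MTF1 was at 15.0, 15.0 and 18.2 CPM in the controls and at 25.8, 22.6 and 23.5 CPM with FDI-6. These groups did not overlap either. The share of all genes with groups that did not overlap was not counted, and 47.7% had an unadjusted p under 0.05 with FDI-6. Its log2 fold change of 0.577 (SE 0.108, adjusted p = 0.0016) passed the adjusted p but fell short of the fold threshold. It passed both criteria without FDI-6 replicate 2 (0.614), FDI-6 replicate 3 (0.588) or control_FDI-6 replicate 3 (0.673). At any fold, 3 of the 5 members passed the adjusted p and all 3 were higher, where 38.9% of all genes passed and 21.0% did so upward.

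No other metallothionein of the set passed the test with FDI-6. MT1F was at 3.58, 2.36 and 2.91 CPM in the controls and at 3.58, 3.14 and 3.06 CPM with FDI-6, with overlapping groups and a log2 fold change of 0.15 (SE 0.21, adjusted p = 0.621). MT1X rested on 10, 13 and 27 counts in the controls and 12, 9 and 9 counts with FDI-6, and its log2 fold change was -0.58 (SE 0.46, adjusted p = 0.342). With so few counts a change of MT1X could not be resolved. MT1A, a metallothionein outside the 8 that was picked out here after its values were seen, was at 2.49, 3.33 and 1.83 CPM in the controls and 5.21, 3.32 and 3.89 CPM with FDI-6 (log2 fold change 0.68, SE 0.25, adjusted p = 0.0503).

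Other measures moved with FDI-6 as well. The summed level of 5 epithelial markers was 7571 to 8249 CPM in the controls and 4282 to 5079 CPM with FDI-6. Of the 5, 3 (KRT8, KRT18 and CDH1) were called as lower, where 5.77% of all genes were. Below 1.5-fold, EPCAM was lower (log2 fold change -0.47, SE 0.12, adjusted p = 0.0106) and KRT19 higher (0.35, SE 0.080, adjusted p = 0.00549). The summed level of 3 fibroblast markers was 17.4 to 19.0 and 5.46 to 9.49 CPM, of which COL1A2 stayed at or below 0.890 CPM and DCN at or below 0.127 CPM in all 24 libraries. The endothelial sums overlapped, at 0 to 0.433 CPM and 0.0606 to 0.524 CPM, and so did those of the leukocyte markers, at or below 0.222 CPM. FDI-6 libraries were shallower (16487394 to 17741253 pairs on genes) than their controls (18856286 to 21039750). Their part in the results above was not tested. All libraries came from the A549 line, so the markers describe expression in these cells. Bulk RNA cannot tell fewer cells with a marker from less of its RNA per cell.

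**Figure D3:**
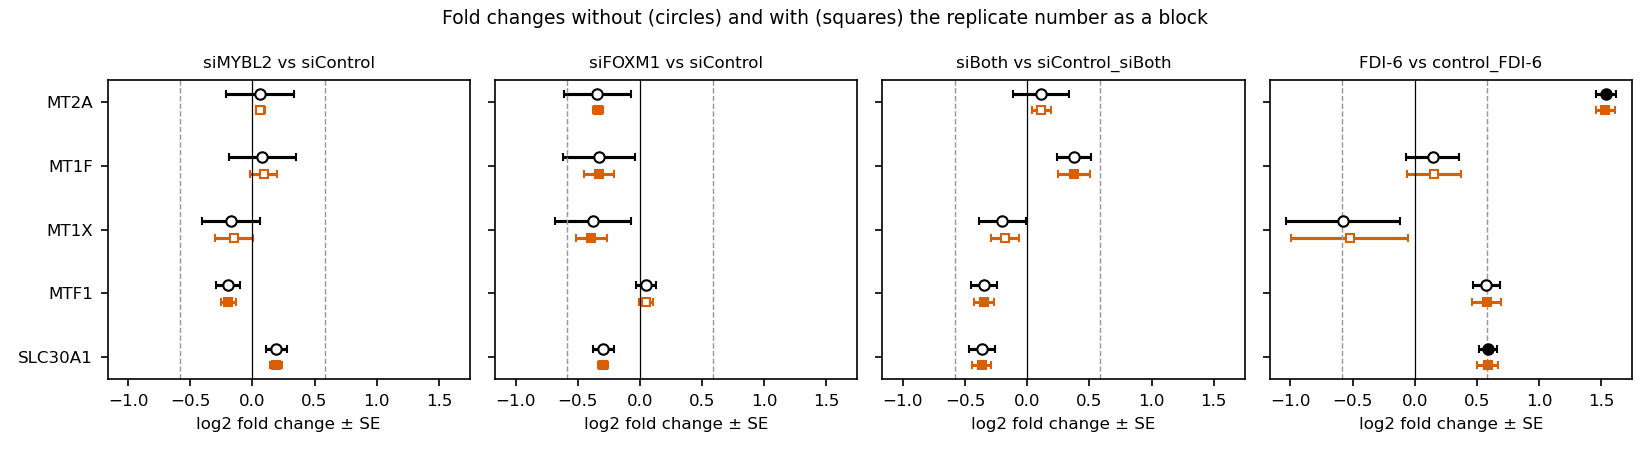
Log2 fold change ± SE of the 5 measured genes in each comparison, without (circles) and with (squares) the replicate block; dashed lines mark 1.5-fold, filled circles are called genes, and filled squares have an adjusted p under 0.05 at any fold. MT2A with FDI-6 (1.54) is far to the right of all other values, and none of the knockdown estimates crosses 1.5-fold.

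To ask whether loss of MYBL2, of FOXM1 or of both altered the same genes, each knockdown was compared with its own control, the siMYBL2 and siFOXM1 comparisons sharing the same 4 siControl libraries. No member was called in any of the 3 knockdown comparisons by edgeR, and none by DESeq2. The background was 7.90% of 16065 genes called in siMYBL2, 0.667% of 15892 in siFOXM1 and 6.44% of 15812 in siBoth. At an unadjusted p under 0.05 there was 1 member in siMYBL2, 1 in siFOXM1 and 3 in siBoth, where 32.2%, 12.96% and 29.6% of all genes tested had such a p. Same-numbered libraries deviated together in the siRNA experiments. When the fit also held a term for that number, called here the replicate block, the background became 12.4%, 2.52% and 11.7%, still with no member called. At any fold no member had an adjusted p under 0.05 without the block, where 18.1% of all genes in siMYBL2, 1.37% in siFOXM1 and 12.3% in siBoth did.

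Within the single-knockdown experiment, MT2A varied more with the replicate number than with the siRNA. In replicates 1 to 4 it was at 258, 183, 318 and 153 CPM in siControl, at 256, 196, 337 and 160 CPM in siMYBL2 and at 175, 163, 260 and 124 CPM in siFOXM1. Replicate 3 was the highest and replicate 4 the lowest in each of the 3 groups, and all 3 groups overlapped. Set against the same-numbered control, siFOXM1 was lower in 4 of 4 pairs by a mean log2 ratio of -0.33 ± 0.17 (SD, n = 4 pairs; two-sided exact sign-flip permutation p = 0.125, the smallest that 4 pairs allow). For siMYBL2 the pairs averaged 0.06 ± 0.05 and 3 of 4 were higher.

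In siFOXM1, MT2A had a log2 fold change of -0.34 (SE 0.27, adjusted p = 0.693), and SLC30A1 one of -0.29 (SE 0.083, adjusted p = 0.148). SLC30A1 was at 127, 119, 126 and 107 CPM in siControl replicates 1 to 4 and at 110, 100, 91.5 and 90.5 CPM in siFOXM1. It was lower in 4 of 4 pairs, although the highest siFOXM1 library lay above the lowest control. With the block, SLC30A1 (-0.30, SE 0.039, adjusted p = 1.53e-06), MT2A (-0.33, SE 0.041, adjusted p = 5.3e-07), MT1X (-0.39, SE 0.12, adjusted p = 0.0209) and MT1F (-0.33, SE 0.12, adjusted p = 0.042) passed the adjusted p below 1.5-fold. That is 4 of 5 members, all lower, where 26.3% of all genes passed at any fold and 14.0% did so downward. MTF1 had a log2 fold change of 0.05 (SE 0.08, adjusted p = 0.891), with 26.0 to 28.9 CPM in siFOXM1 and 23.9 to 29.6 CPM in siControl.

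In siMYBL2 the same exporter stood on the other side of its control. SLC30A1 was at 147, 121, 144 and 134 CPM in replicates 1 to 4, higher than the same-numbered control in 4 of 4 pairs, with a log2 fold change of 0.19 (SE 0.084, adjusted p = 0.151). MTF1 was lower in 4 of 4 pairs, at 20.9 to 25.7 CPM, with a log2 fold change of -0.19 (SE 0.096, adjusted p = 0.197). With the block these became adjusted p = 0.00588 and 0.019, so that 2 of 5 members passed at any fold where 46.7% of all genes did. MT2A (0.06, SE 0.28), MT1F (0.08, SE 0.27) and MT1X (-0.17, SE 0.23) had adjusted p of 0.657 or higher.

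In siBoth the exporter and the sensor were lower and did not overlap their controls. How many of all genes had groups without overlap was not counted, and 29.6% had an unadjusted p under 0.05. SLC30A1 was at 83.2, 70.3 and 78.6 CPM in siControl_siBoth replicates 1 to 3 and at 58.6, 54.6 and 67.0 CPM in siBoth (log2 fold change -0.36, SE 0.10, adjusted p = 0.055). MTF1 was at 44.05, 40.0 and 37.4 CPM and at 34.9, 30.5 and 29.9 CPM (-0.35, SE 0.10, adjusted p = 0.0589). MT1F went the other way without overlap, at 7.62, 7.46 and 6.46 CPM in the controls and 9.10, 10.0 and 8.78 CPM in siBoth (0.37, SE 0.14, adjusted p = 0.115). None of these differences passed the adjusted p without the replicate block, whereas with it each did, below 1.5-fold.

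MT2A was abundant in both groups of the siBoth experiment, at 673, 1046 and 651 CPM in siControl_siBoth and 833, 1080 and 643 CPM in siBoth, replicate 2 being the highest in each. Its log2 fold change was 0.11 (SE 0.23, adjusted p = 0.783), and that of MT1X was -0.20 (SE 0.19, adjusted p = 0.515). With the block, SLC30A1 (adjusted p = 0.00128), MTF1 (0.00268) and MT1F (0.0323) passed at any fold, which is 3 of 5 members where 34.8% of all genes passed.

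**Figure D4:**
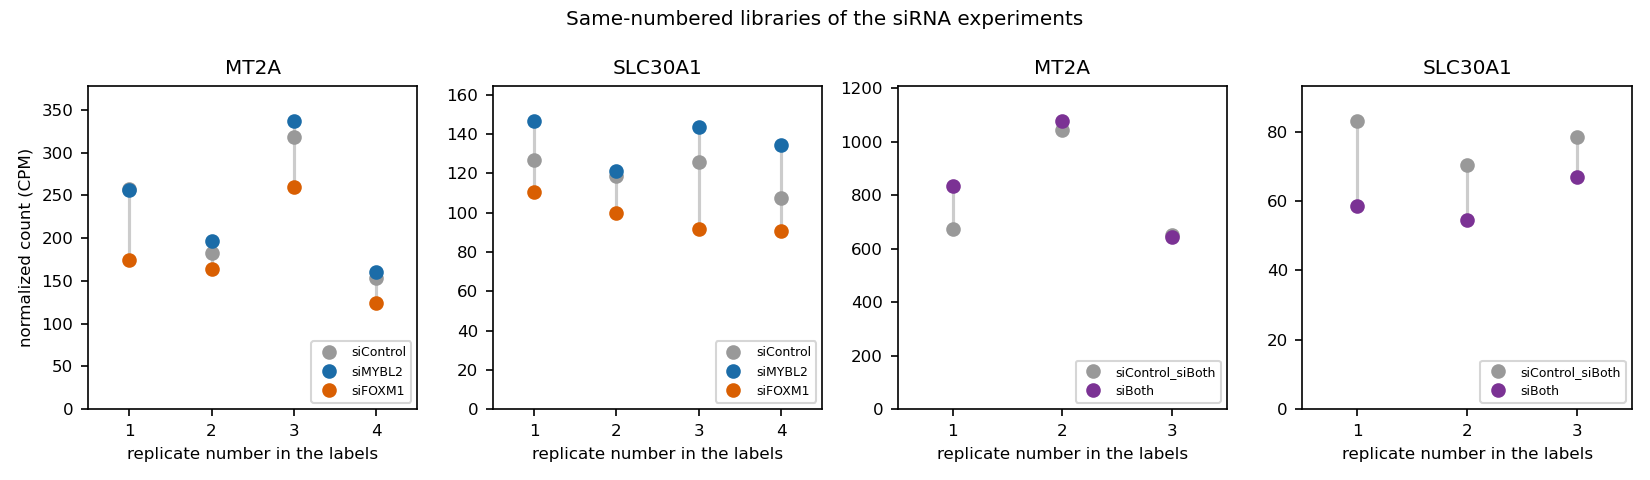
MT2A and SLC30A1 in CPM (linear axis from 0) against the replicate number in the single-knockdown experiment (left pair of panels) and the siBoth experiment (right pair); grey lines join same-numbered libraries. Replicate 3 holds the highest MT2A values of the single-knockdown experiment (260 to 337 CPM), and the siFOXM1 point is the lowest of its number for both genes.

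As FDI-6 is described as an inhibitor of FOXM1, its effect was set against that of siFOXM1 as a difference of log2 effects in a fit of all 24 libraries. The difference, FDI-6 minus siFOXM1, was 1.87 for MT2A (SE 0.38, adjusted p = 0.00146), 0.88 for SLC30A1 (SE 0.13, adjusted p = 5.09e-05) and 0.53 for MTF1 (SE 0.14, adjusted p = 0.00909). Thus 3 of 5 members differed between the treatments, each with the higher effect under FDI-6, against a background of 20.0% of 17752 genes. The effects came from separate experiments with different controls, so treatment and experiment cannot be told apart in these differences. For MT2A and SLC30A1 the estimates had opposite signs in the 2 comparisons. The difference was 0.47 for MT1F (SE 0.38, adjusted p = 0.412) and -0.21 for MT1X (SE 0.55, adjusted p = 0.833). FOXM1 RNA itself was at 126 to 132 CPM in control_FDI-6 and 91.2 to 112 CPM with FDI-6, against 10.3 to 13.2 CPM in siFOXM1, so the treatments differed in what remained of the transcript. RNA does not measure how far FOXM1 was inhibited. The study reports less FOXM1 and MYBL2 protein in nuclei after FDI-6.

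Between siBoth and siMYBL2 no member's effect differed by edgeR, where 0.304% of 17752 genes did. These knockdowns also came from separate experiments, which cannot be told apart from the added siRNA. SLC30A1 came closest, with a difference of -0.55 (SE 0.13, adjusted p = 0.0595). With the replicate block it was -0.56 (SE 0.09, adjusted p = 0.00063), and DESeq2 counted it as well, as did the fits without siMYBL2 replicate 2 or siBoth replicate 3.

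Of 23 further zinc transporters, 17 passed the filter in each comparison. This list holds the SLC30A (ZnT) family, which moves zinc out of the cytosol, and the SLC39A (ZIP) family, which moves it in. With FDI-6, SLC30A7, which carries zinc into the Golgi, rose from between 21.5 and 24.4 CPM in the controls to between 34.5 and 42.0 CPM (log2 fold change 0.69, SE 0.099, adjusted p = 0.00028). The importer SLC39A3 fell from between 24.9 and 26.9 CPM to between 13.4 and 19.8 CPM (-0.59, SE 0.13, adjusted p = 0.00488). The call for SLC39A3 was lost without FDI-6 replicate 1, control_FDI-6 replicate 1 or control_FDI-6 replicate 2 (log2 fold changes -0.43, -0.58 and -0.57). The list's median was 0.08 against -0.01 for all genes, and 15 of 17 were not called, where 13.8% of all genes were called. At any fold 8 of the 17 passed the adjusted p, 5 higher and 3 lower, where 38.9% of all genes did.

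In siBoth 2 of the 17 fell and none rose, where 6.44% of all genes were called and 3.64% were called as lower. The importer SLC39A10 was at 80.4, 79.7 and 88.5 CPM in the controls and 48.7, 42.4 and 61.4 CPM in siBoth (-0.70, SE 0.13, adjusted p = 0.0145), with adjusted p = 0.056 without siControl_siBoth replicate 3. SLC39A14, a zinc and iron importer named here after its values were seen, was at 324 ± 31.8 CPM and 215 ± 13.7 CPM (n = 3 each; -0.59, SE 0.10, adjusted p = 0.00959). With the replicate block SLC39A14 was no longer called and SLC39A1 was, a gene with 17 to 55 counts per library of this experiment. Another gene on the same strand covers 60.8% of the exon bases of SLC39A1 and had no count in any library, so pairs there may have been left out as ambiguous and the counts of SLC39A1 are uncertain. The list's median was -0.15 against 0.02 for all genes. SLC39A10 was also lower than siControl in 4 of 4 siFOXM1 pairs (-0.50, SE 0.14, adjusted p = 0.151; -0.51, SE 0.035, adjusted p = 1.96e-11 with the block) and higher with FDI-6 in each library (0.29, SE 0.086, adjusted p = 0.0204), below 1.5-fold in both.

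No zinc transporter was called in siMYBL2 or siFOXM1 by edgeR, where 4 and 3 of the 17 had an unadjusted p under 0.05 against 32.2% and 12.96% of all genes, and DESeq2 called 0 in each. In siMYBL2, SLC39A14 (-0.56, SE 0.057, adjusted p = 0.000462) and SLC30A6 (-0.56, SE 0.078, adjusted p = 0.00198), both named after their values were seen, passed the adjusted p directly below 1.5-fold. With the replicate block, 6 of the 17 passed the adjusted p at any fold in siMYBL2 (2 higher, 4 lower), 4 in siFOXM1 (all lower) and 9 in siBoth (2 higher, 7 lower), against the 46.7%, 26.3% and 34.8% of all genes given above.

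**Figure D5:**
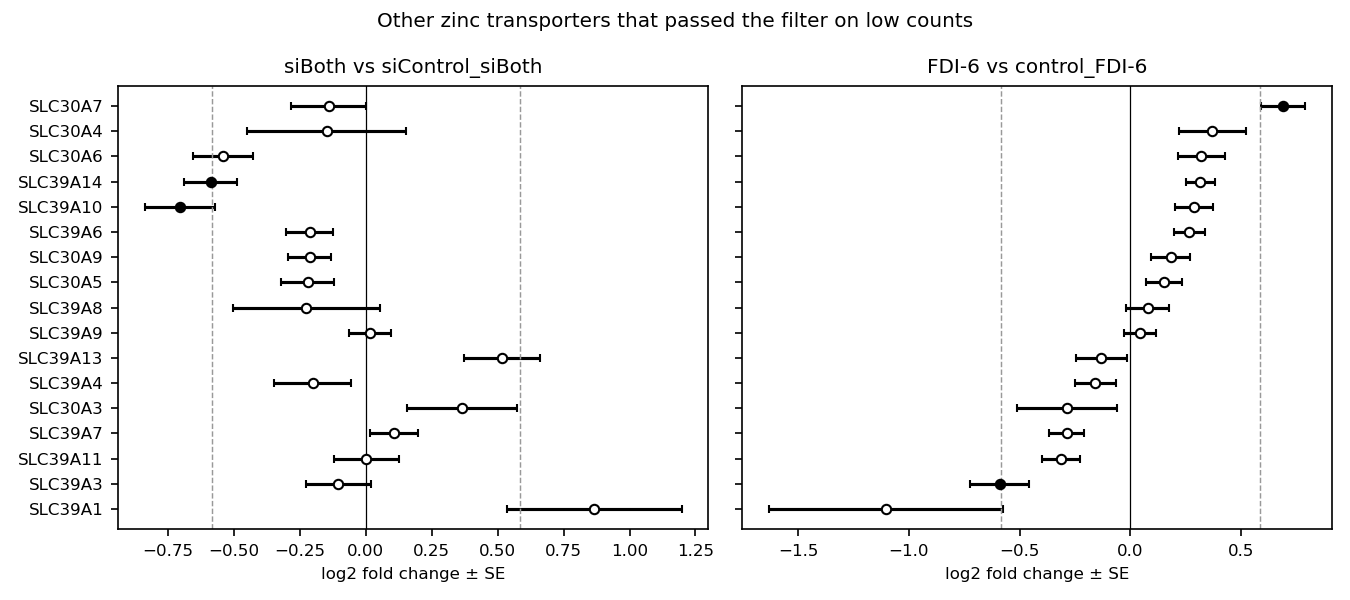
Log2 fold change ± SE of the 17 further zinc transporters that passed the filter, in siBoth (left) and with FDI-6 (right), ordered by the FDI-6 value; filled points are called and dashed lines mark 1.5-fold. SLC30A7 (0.69) and SLC39A3 (-0.59) are filled with FDI-6, and SLC39A10 (-0.70) and SLC39A14 (-0.59) in siBoth.

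Among 13 other metallothionein genes and pseudogenes, 1 or 2 passed the filter depending on the comparison. The pseudogene MT1DP was called as higher in siBoth, with 7, 8 and 10 counts in the controls and 28, 15 and 31 counts in siBoth (log2 fold change 1.48, SE 0.37, adjusted p = 0.0378). It passed the filter on low counts through the siBoth libraries, where it was higher, so the call is no independent evidence of a rise. The call was also lost on leaving out any 1 library of that comparison other than siBoth replicate 2. No member of the set shared a 150-base window with its transcripts. In GENCODE V44, which is newer than the annotation used for counting, another gene on the same strand covers 100% of the exon bases of MT1DP, and its counts are uncertain.

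Among genes of metal and oxidative stress, 4 of 13 were called with FDI-6, in both directions, where 13.8% of all genes were called. At any fold 11 of the 13 passed the adjusted p, again in both directions, where 38.9% of all genes did. HSPA1B, an inducible heat shock protein, rose from between 83.5 and 86.6 CPM to between 120 and 149 CPM (0.67, SE 0.085, adjusted p = 0.000116), and SLC7A11, the cystine importer, named after its values were seen, rose from 199 ± 13.2 CPM to 302 ± 13.7 CPM (n = 3 each; 0.60, SE 0.068, adjusted p = 5.08e-05). HSPA1B has a near-identical copy, HSPA1A, and reads may be divided between them. FTH1, the ferritin heavy chain that stores iron, fell from between 723 and 1105 CPM to between 405 and 642 CPM (-0.77, SE 0.17, adjusted p = 0.00365), and a gene on the other strand, BEST1, covers 63.2% of its exon bases, where pairs cannot be assigned to either gene without strand. HMOX1, the haem-degrading enzyme that metals and oxidants are known to induce, fell from between 164 and 169 CPM to between 91.9 and 132 CPM (-0.60, SE 0.11, adjusted p = 0.00126). HMOX1 fell in siMYBL2 as well, from between 46.9 and 75.4 CPM to between 28.9 and 43.7 CPM (-0.72, SE 0.16, adjusted p = 0.0166). In siBoth it had a log2 fold change of -0.69 and adjusted p of 0.0716, and -0.69 and 4.23e-05 with the block, where it was called. The HMOX1 call was lost with FDI-6 when FDI-6 replicate 1 (-0.47) or replicate 2 (-0.58) was left out, and in siMYBL2 without siMYBL2 replicate 1 (adjusted p = 0.055). The list's median with FDI-6 was -0.18 against -0.01 for all genes. Of 12 genes of copper handling, 10 passed the filter. With FDI-6 only STEAP2, a metalloreductase, was called, where 13.8% of all genes were. It rose from between 28.4 and 29.8 CPM to between 43.1 and 55.8 CPM (0.75, SE 0.098, adjusted p = 0.00015). Lower, below 1.5-fold, were ATOX1 (-0.52, adjusted p = 0.00104), CCS (-0.58, 0.00217), COX17 (-0.41, 0.00413) and COMMD1 (-0.44, 0.00694). Thus 5 of the 10 passed the adjusted p, where 38.9% of all genes did. With the replicate block CCS was called as well. In the knockdowns edgeR called 0 genes of copper handling, where 2 in siMYBL2, 1 in siFOXM1 and 4 of the 10 in siBoth had an unadjusted p under 0.05, against 32.2%, 12.96% and 29.6% of all genes. Of the 13 stress genes it called 1 in siMYBL2 (HMOX1) and 0 in siFOXM1 and siBoth, where 0 and 3 had an unadjusted p under 0.05, against the same shares of all genes.

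Profiles over the 24 libraries, taken as log2(CPM + 1) minus the mean of the experiment's own controls, were compared for the 13927 genes that averaged 1 CPM or more. The genes most like MT2A were ZEB2 (Pearson r = 0.94), VDR (0.94) and NEDD4 (0.93). In FDI-6 against control_FDI-6 these had means of 11.6 and 3.59, 18.5 and 7.60, and 281 and 99.1 CPM. Those most like SLC30A1 were NRAS (0.94), DPY19L3 (0.94) and EYA4 (0.93). Within the set, MT2A correlated with MTF1 at 0.69 and with SLC30A1 at 0.68, and with MT1F at 0.33 and MT1X at -0.23. These values describe libraries that share controls and one strong FDI-6 response, and they carry no test.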

How the data were processed

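Libraries were polyA-selected and sequenced as 150 bp pairs on a NovaSeq instrument. The authors trimmed the reads with TrimGalore, aligned to hg38 (STAR) and counted pairs per gene (HTSeq, GENCODE V29 annotation). The deposited files hold these raw counts without normalization, and strand setting and versions were not given in the sources used here. Lines naming no gene (18.5% to 26.2% of pairs) were left out.

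Symbols and positions came from GENCODE V44. Groups and replicate numbers came from the labels. Each treatment was compared with its own control by edgeR 4.0.16 in R 4.3.3, with TMM scaling, filterByExpr and quasi-likelihood tests, adjusted by Benjamini-Hochberg over all genes tested. Differences of effects came from 1 fit of all libraries. CPM values use TMM factors over all 24 libraries, so their ratios differ slightly from the fitted fold changes. Alternatives were DESeq2 1.42.0, other scalings and filters, the replicate block and leaving out each library. The test was checked on simulated counts.

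Deviations of same-numbered libraries correlated at 0.573 to 0.875 for siMYBL2, 0.539 to 0.906 for siFOXM1 and 0.553 to 0.688 for siBoth, so those numbers pair the samples, whereas in the FDI-6 experiment 1 of 3 pairs exceeded 0.1. No library duplicated another. No member shared a 150-base window with transcripts of another gene except MT1X (8.78% of windows, with an overlapping long noncoding RNA).

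Members and lists were chosen with earlier results of these data known. Named genes were the 8 members, the called gene of largest rise and largest fall in each related list and comparison, any called in 3 or more comparisons, the 3 genes most like MT2A and the 3 most like SLC30A1, and the siRNA targets.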

Additional observations from a re-analysis of the deposited data

Results flagged for a closer look

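The effect of FDI-6 exceeded that of siFOXM1 by a tested difference for 3 of the 5 measured members, though treatment and experiment cannot be told apart in it. The difference of log2 effects was 1.87 for MT2A, 0.88 for SLC30A1 and 0.53 for MTF1, and each of the 3 passed the adjusted p in all 30 alternatives. In 1 of 39 groups of 4 libraries tested for an outlying library, SLC39A3 in siFOXM1 had one at 14.3 CPM (replicate 3) beside 15.4 to 15.5 CPM in the other 3. Chance flags about 1 in 20 groups.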

How the results depend on the processing

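Called genes numbered 1269 in siMYBL2, 106 in siFOXM1, 1019 in siBoth and 2098 with FDI-6. With the replicate block they numbered 1991, 401 and 1849 in the 3 siRNA comparisons, with DESeq2 163 in siFOXM1, and without a filter 1545 in siBoth. The block changed no member's call. In the FDI-6 experiment, where samples share only a number, it gave 2013. Upper-quartile scaling turned the siBoth split from 443 higher and 576 lower into 610 and 417. The 2 members called with FDI-6 became 1 under DESeq2, relative log expression scaling, upper-quartile scaling and the filter of 10 counts, as SLC30A1 sits at the fold threshold, and 1 member's effect (SLC30A1) differed between siBoth and siMYBL2 under DESeq2 and the replicate block. Leaving out 1 library gave 935 to 1456 called genes in siMYBL2, 56 to 115 in siFOXM1, 587 to 1097 in siBoth and 1705 to 2406 with FDI-6, 1 to 3 called members with FDI-6 and 0 elsewhere, 0 to 1 member differing between siBoth and siMYBL2, and 1 to 3 called zinc transporters with FDI-6, 1 to 3 in siBoth and 0 to 1 in siMYBL2. Elsewhere the causes were not tested.

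The sign of small log2 fold changes turned when 1 library was left out. In siMYBL2 the ranges were -0.16 to 0.26 for MT2A, -0.12 to 0.23 for MT1F, -0.33 to 0.019 for MT1X, -0.043 to 0.13 for FTH1, -0.28 to 0.050 for HSPA1B, -0.15 to 0.52 for MT1DP and -0.18 to 0.015 for SLC39A10. In siFOXM1 they were -0.00089 to 0.11 for MTF1, -0.22 to 0.20 for STEAP2, -0.18 to 0.10 for HMOX1 and -0.14 to 0.026 for MYBL2. In siBoth they were -0.10 to 0.36 for MT2A, -0.36 to 0.037 for MT1X and -0.19 to 0.13 for HSPA1B, which was 0.047 under upper-quartile scaling. Differences of effects ran from -0.45 to 0.36 for MT1X (FDI-6 minus siFOXM1), and from -0.15 to 0.30 for MT2A and -0.24 to 0.22 for MT1X (siBoth minus siMYBL2). MT1E, MT1G and MT1M had too few counts to test, and MT1X had too few in the FDI-6 experiment to resolve a change.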
